A study of Mus musculus with 18 samples.

Results

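The comparison described here sets T cell libraries labelled Treg against libraries labelled CD8, both wild type, across all genes counted. It uses 6 of the 18 libraries of the series, 3 for each label, taken by the names of their columns in the deposited count table. All cells came from mouse spleen, were sorted by flow cytometry, and were then stimulated for 72 h with interleukin-2 at 10 ng/ml and antibodies to CD3 and CD28, each at 2 µg/ml, the former bound to the plate. The mice of both groups carried the Foxp3 YFP/cre allele, which marks cells that transcribe Foxp3, and their Ebi3 gene was intact. The same alleles were present in 3 CD4 libraries, and the other 9 libraries came from Foxp3 YFP/cre Ebi3 -/- mice, here called KO. The labels give neither age nor sex, and do not say which surface markers or reporter level defined the Treg sort, nor whether each replicate came from its own animal or culture. P-values therefore measure only the spread between these libraries, which may be technical.

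CD8 T cells are the cytotoxic arm of the T cell response. After activation through the T cell receptor and interleukin-2 they divide, switch to aerobic glycolysis, make granzymes and perforin, and secrete interferon gamma and lymphotactin. Regulatory T cells (Treg) belong to the CD4 lineage, depend on the transcription factor Foxp3, restrain other T cells, and carry the high-affinity interleukin-2 receptor chain Il2ra together with Ctla4 and several receptors of the TNF receptor family. A 3' tag library counts polyadenylated RNA near the end of each transcript, so a count measures the amount of a transcript in the pool and not protein. In such bulk samples, fewer cells of a type and less RNA per cell cannot be told apart.

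Totals were 1921382 to 1968300 counts in the CD8 libraries and 841892 to 1089003 in the Treg-labelled libraries. A floor of 3 counts corresponded to 1.48 to 1.52 counts per 1e6 counts (CPM) in the former and 2.87 to 3.88 CPM in the latter, and floors and ratio intervals cover counting error only. The counts of Treg replicates 1 and 2 agreed within sampling noise, at a chi-square of 0.923 per gene, and were counted as 1 sample, so Treg-labelled means have n = 2. CD8 pairs differed by 2.61 to 3.44 on that scale. Of the 9 pairs formed by a Treg WT and a Treg KO library, 4 also showed no difference beyond sampling noise, so these genotypes may not be independent samples.

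Of 12820 genes tested, 5996 passed an adjusted p of 0.05 in edgeR's quasi-likelihood test, 46.8% of those tested, and these are called genes below. In Treg-labelled libraries 3441 were higher (26.8%) and 2555 lower (19.9%), with a median log2 fold change of 0.10 over all genes tested. At a fold change of 2 or more, 2018 were higher and 1264 lower. A test against a fold change of 1.5 called 1861 of the 12820 genes higher and 1156 lower. The balance depended on abundance: among the 7271 genes with a mean of 20 CPM or more, 1700 were higher and 1883 lower, with 442 and 680 at 2-fold or more. Without composition scaling, on total counts only, the calls were 2848 higher and 3129 lower and the median over all genes moved to -0.03. In 5820 of the called genes the libraries of the groups did not overlap, against 7410 of all 12820 genes tested.

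**Figure D1:**
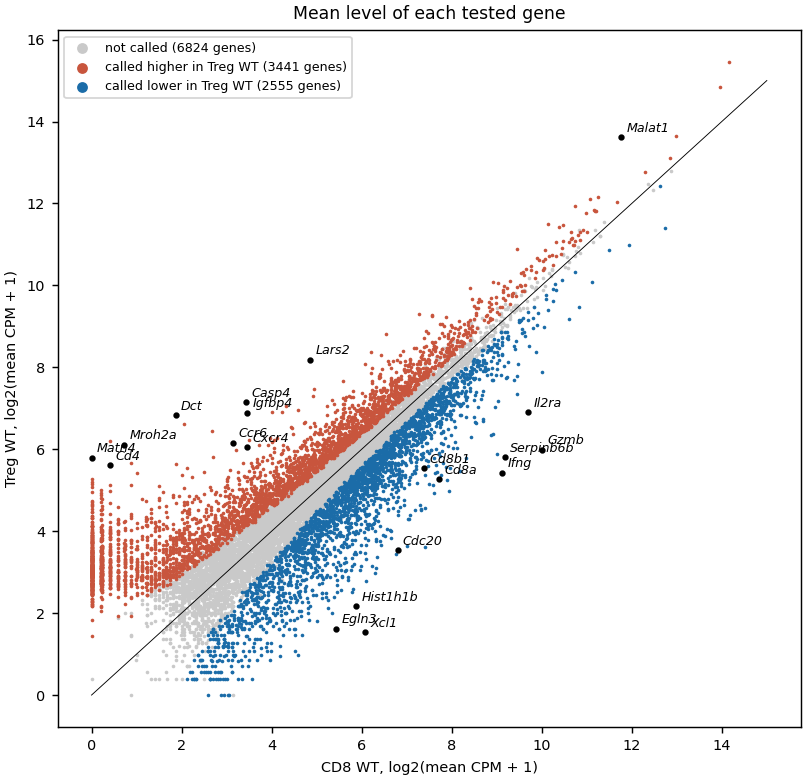
Mean level of each tested gene in CD8 WT (horizontal) and Treg WT (vertical) libraries, as log2(mean CPM + 1), with genes called higher in the Treg-labelled group in red, called lower in blue and not called in grey. Gzmb, Ifng and Serpinb6b lie far below the line of equal levels, while the column of red points at the left edge holds genes with no count in CD8 libraries, among them Matn4.

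The coreceptors were read first, since they check the labels. Cd8a, the alpha chain of the CD8 coreceptor (chromosome 6, 71373427 to 71379173 in GRCm38), stood at 244, 218 and 167 CPM in the CD8 libraries and at 43.9, 46.8 and 29.6 CPM in the Treg-labelled ones. The Treg-labelled libraries were all lower, with a log2 fold change of -2.44 ± 0.21 (SE, edgeR adjusted p = 4.3e-09). They were not empty of it, however: CD4 libraries of the same genotype held 0, 0.482 and 1.69 CPM. Cd8b1, the beta chain, gave the same order, with 128 to 192 CPM in CD8, 42.6 to 46.8 in Treg-labelled and 1.46 to 7.30 CPM in CD4 libraries. Cd4 was at 0, 0.508 and 0.494 CPM in CD8 and at 36.2, 34.5 and 60.2 CPM in Treg-labelled libraries, against 100 to 127 CPM in CD4 libraries. Against the 2 Cd4 counts of all CD8 libraries this was a ratio of 135 (95% exact interval 36.7 to 1130). Both coreceptors were thus present in every Treg-labelled library, each at a level between those of the other labels. Zbtb7b, the factor that commits thymocytes to the CD4 lineage, was higher by 0.75 ± 0.18 (SE), and Runx3, its counterpart in CD8 cells, lower, at -0.76.

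Foxp3 transcript did not separate the groups. It had 1 count in all CD8 libraries together and 2 in all Treg-labelled libraries together, under the floor of 3 counts in both, and was not tested. Whether the reporter insertion changes the 3' end that the assay reads is not given in the sources used here. Ebi3, a subunit of interleukin-27 and interleukin-35 that Treg cells are known for, gave 29.0, 27.9 and 29.6 CPM in CD8 and 34.9, 25.9 and 40.1 CPM in Treg-labelled libraries (edgeR adjusted p = 0.372). Those ranges overlapped. Of 24 tested genes of Treg identity, 2 were higher and 12 lower, with a median log2 fold change of -0.61 against 0.10 over all genes. The lower ones included the defining receptors. Il2ra was at 929, 871 and 687 CPM in CD8 and 189, 115 and 85.0 CPM in Treg-labelled libraries (log2 fold change -2.78, adjusted p = 8.07e-06). Ctla4, which competes with Cd28 for its ligands, was at 47.4 to 70.6 against 16.0 to 24.6 CPM, and Tnfrsf18 (GITR) at 230 to 304 against 50.5 to 104.7 CPM. Ikzf4 (Eos), a Foxp3 partner, was at 49.3 to 61.6 against 6.46 to 11.46 CPM, and Lrrc32, which displays latent TGF-beta on Treg cells, at 9.88 to 13.5 against 0 to 3.82 CPM. The higher members were Swap70 (log2 fold change 1.45) and Nt5e (0.94), the ecto-enzyme CD73, whose call was lost without Treg replicate 2 (edgeR adjusted p = 0.0587) or 3 (0.0790). Ikzf2 (Helios), Nrp1, Izumo1r, Capg and Il10 were tested and not called, nor was Tgfb1, except without Treg replicate 3 (edgeR adjusted p = 0.0375). Of the untested members, Ccr8 had 4 counts in CD8 and 0 in Treg-labelled libraries and Tigit 4 and 3. Since most of the called markers were lower than in CD8 cells, the group is called Treg-labelled throughout. Of 11 CD4 lineage genes 6 were higher and 5 lower, or 5 and 5 without Treg replicate 3 and 3 and 3 in a test against a fold change of 1.5.

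**Figure D2:**
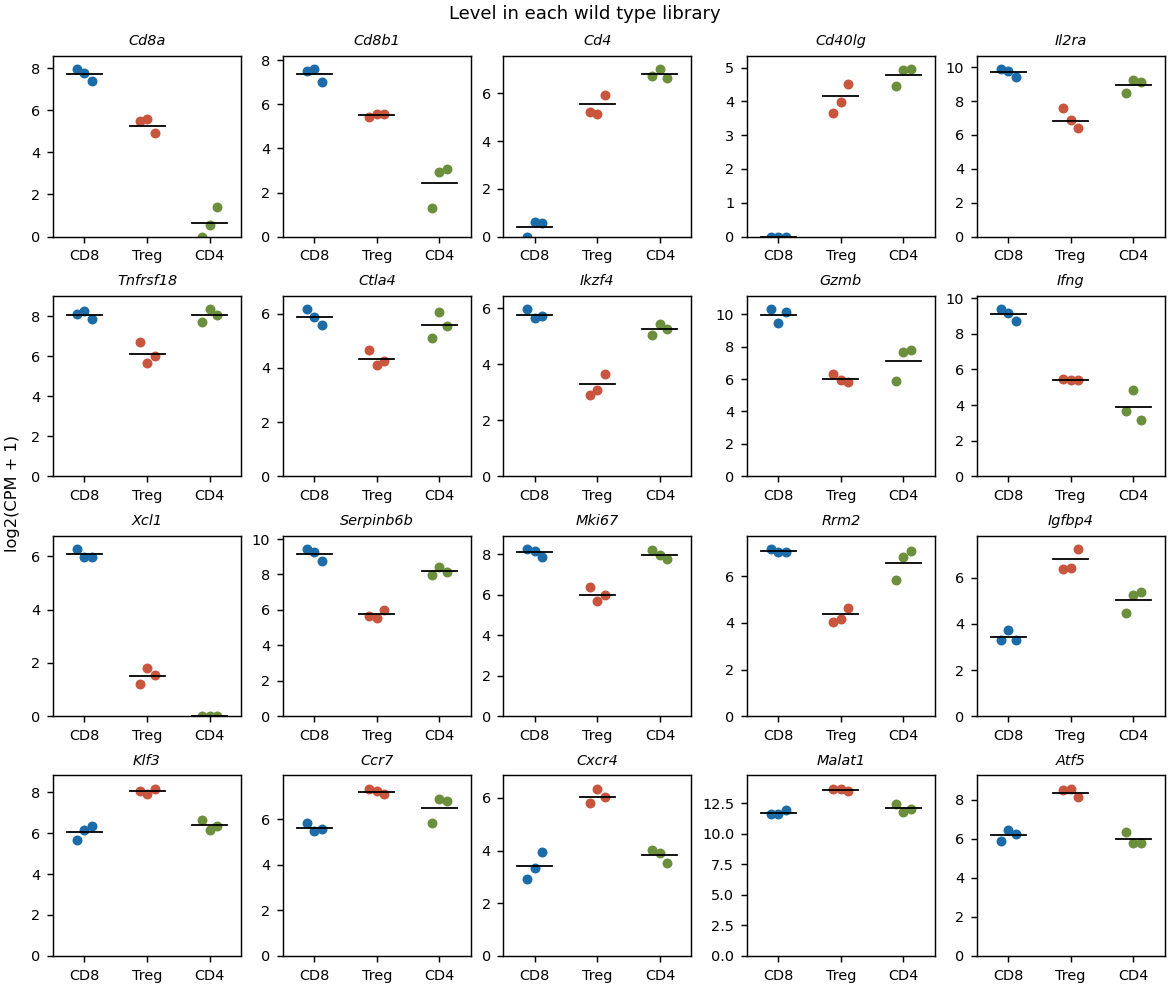
Level of 20 genes in each wild type library, as log2(CPM + 1); points are libraries, horizontal lines are group means with Treg replicates 1 and 2 averaged first. Cd8a and Cd8b1 in Treg-labelled libraries sit between CD8 and CD4 libraries, Il2ra, Ctla4, Tnfrsf18 and Ikzf4 lie below both, and Igfbp4, Klf3, Cxcr4, Malat1 and Atf5 lie above both.

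The CD8 effector program was lower. Of 11 tested CD8 lineage genes 10 were lower and 0 higher (median -2.42), and of 18 tested cytotoxic granule genes 13 were lower and 0 higher (median -1.89). Gzmb, the serine protease that triggers death of target cells, was at 1259, 714 and 1125 CPM in CD8 and 77.5, 60.4 and 56.4 CPM in Treg-labelled libraries. Every Treg-labelled library was below every CD8 library, and the log2 fold change was -4.03 ± 0.52 (SE, adjusted p = 7.1e-05). Prf1, the pore-forming perforin, was at 125, 116 and 92.3 against 24.6, 24.7 and 15.3 CPM (log2 fold change -2.42). In CD4 libraries Prf1 reached only 1.46 to 2.41 CPM, so Treg-labelled libraries again lay between. Serpinb6b, a serine protease inhibitor, was at 692, 618 and 427 against 49.1, 45.6 and 62.1 CPM, and Gzma at 65.6 to 67.7 against 1.23 to 11.6 CPM. Srgn, the proteoglycan core of the granule, and Lamp1 were not called, at log2 fold changes of 0.04 and -0.06.

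Type 1 cytokines and their regulators moved with the granule genes. Of 15 tested members 9 were lower and 2 higher (median -1.99). Xcl1, the chemokine lymphotactin, which attracts cross-presenting dendritic cells, was at 76.1, 62.5 and 61.2 CPM in CD8 and 1.29, 2.47 and 1.91 CPM in Treg-labelled libraries (log2 fold change -5.08 ± 0.38, SE, adjusted p = 2.29e-10). Ifng was at 664, 576 and 420 against 43.9, 40.7 and 42.0 CPM (log2 fold change -3.71 ± 0.33, SE, adjusted p = 1.13e-06). The Treg-labelled values of Ifng lay close together and above the 7.86 to 27.5 CPM of CD4 libraries. Tbx21 (T-bet) and Eomes, the transcription factors of this program, had log2 fold changes of -2.55 and -1.99. The interleukin-12 receptor chains Il12rb2 (-3.40) and Il12rb1 (-2.68) and lymphotoxin alpha, Lta (-3.39), were lower as well. The 2 higher members were the chemokines Ccl4 (0.72) and Ccl5 (0.97), the latter without a call when Treg replicate 3 was left out (edgeR adjusted p = 0.0529).

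Among helper cytokines and TNF ligands, 8 of 15 tested members were lower and 2 higher (median -1.81). Csf2, the cytokine GM-CSF, had counts at 4.57 to 5.43 CPM in each CD8 library and 0 in each Treg-labelled library, at least 4.39-fold higher in CD8 against a floor of 3 counts over the Treg-labelled group. Cd40lg, the ligand through which CD4 cells license B cells, was the opposite, with 0 counts in CD8 libraries and 11.6, 14.8 and 21.97 CPM in Treg-labelled ones, at least 33.4-fold higher against the same floor over the CD8 group. Ltb, the membrane-bound lymphotoxin, was at 34.1 to 53.8 against 81.3 to 105.1 CPM. Of the type 2 genes, Il13 was at 72.1 to 83.1 against 3.70 to 10.3 CPM and Gata3 at 321 to 485 against 86.3 to 112 CPM, whereas Maf was at 8.51 to 14.8 against 34.5 to 78.8 CPM. Il24, a cytokine of the interleukin-10 family, was at 144 to 189 against 7.75 to 14.3 CPM. Th17 and follicular helper genes went the other way: 7 of 10 tested were higher and 1 lower (median 1.53). Ccr6, the receptor for Ccl20, was at 4.51, 7.11 and 11.9 CPM in CD8 and 87.9, 82.6 and 55.4 CPM in Treg-labelled libraries (log2 fold change 3.18 ± 0.28, SE, adjusted p = 1.83e-09). Bcl6, the follicular helper repressor, was at 7.01 to 11.9 against 38.2 to 41.1 CPM, and Slamf6, Ahr, Rora and Il6ra were higher by 1.62, 1.52, 1.53 and 1.44.

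Antigen receptor signalling genes were lower or not called. Of 26 tested, 12 were lower and 0 higher (median -0.56), and with only the 6 libraries of this comparison in the fit 19 were lower. In a test against a fold change of 1.5, which asks for more than a difference from 0, 7 were lower. Lcp2 (SLP-76), an adaptor downstream of the receptor, was at 222, 233 and 186 against 42.6, 51.8 and 65.9 CPM (log2 fold change -1.94, edgeR adjusted p = 3.29e-07). All CD8 values lay above all Treg-labelled values. The kinase Zap70 and the adaptor Lat had log2 fold changes of -1.69 and -1.20. The CD3 chains Cd3e and Cd3g were not called (-0.16 each), and Trac, the alpha constant segment, was at 240 to 349 against 174 to 225 CPM without being called, except without CD8 replicate 3 (edgeR adjusted p = 0.0480).

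Receptors that rise on stimulated T cells were also lower. Of 12 TNF receptor family and related costimulators 7 were lower and 0 higher (median -0.73). Tnfrsf9 (4-1BB) was at 523, 596 and 421 CPM in CD8 and 102, 41.9 and 44.9 CPM in Treg-labelled libraries (log2 fold change -3.10), and Tnfrsf4 (OX40) at 233 to 349 against 33.3 to 50.4 CPM. Tnfrsf1a, a receptor for TNF, had a log2 fold change of -1.43. Of 15 tested inhibitory receptor genes and their regulators 10 were lower and 3 higher. Cd160 was at 20.7 to 41.1 against 4.78 to 6.46 CPM and Nr4a3 at 75.6 to 119 against 29.6 to 37.5 CPM, while Tox (1.44), Vsir (1.25) and Btla (0.58) were higher. Tested against a fold change of 1.5, 6 of the inhibitory list were lower and 2 higher. The call of Lag3 was lost without Treg replicate 3 (adjusted p = 0.0724). Of 18 interleukin-2 receptor and STAT5 genes 11 were lower and 2 higher (median -1.12). Il2rb, the signalling beta chain, was at 564, 437 and 445 against 116, 56.7 and 76.4 CPM, and the STAT5-induced feedback inhibitor Cish at 283 to 346 against 44.4 to 77.5 CPM. Bcl2, which interleukin-2 sustains, had a log2 fold change of -1.04. The 2 higher members were the shared gamma chain Il2rg (0.47) and the kinase Jak1 (0.54).

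Genes of S phase and mitosis were nearly all lower, and histone genes more often lower than higher. Of 38 S phase genes 36 were lower and 0 higher (median -1.66), and of 37 G2 and mitosis genes 35 were lower and 0 higher (median -2.13). Of 50 tested genes with names that start with Hist 31 were lower and 2 higher (median -1.75). These were listed by name alone, and whether their RNAs are polyadenylated, as the assay requires, was not tested. Rrm2, a subunit of the reductase that makes deoxyribonucleotides, was at 143, 131 and 130 CPM in CD8 and 15.5, 17.3 and 23.9 CPM in Treg-labelled libraries (log2 fold change -2.78, adjusted p = 5.25e-06). Mki67, the proliferation marker, was at 307, 287 and 232 against 81.4, 50.5 and 63.0 CPM (log2 fold change -2.09 ± 0.17, SE, adjusted p = 2.54e-10). CD4 libraries held 217 to 298 CPM of Mki67, above all Treg-labelled values. Top2a, which untangles DNA before division, was at 884 to 1117 against 222 to 246 CPM. Cdc20, the activator of the anaphase-promoting complex, was at 123, 121 and 85.9 against 12.9, 8.63 and 10.5 CPM. The mitotic kinases Bub1 and Aurkb had log2 fold changes of -3.09 and -2.96. Hist1h1b, a linker histone, was at 56.3 to 59.4 against 2.47 to 3.88 CPM. Pcna, the sliding clamp of DNA polymerase, differed least among those named here, at -0.78.

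E2F factors are known to drive S phase genes through a short element, so the promoters of these genes were searched for it. The windows are RefSeq promoters of GRCm38.p6, 250 bases before to 50 after a start. The motif letters were TTTGGCGC, TTTCGCGC, TTTCCCGC and TTTGCCGC on both strands. A promoter was given for 31 of the 38 S phase genes, and 11 of those held a match in any of their promoters, against 704 of the 27025 genes of the table (2.60%) and 2.26% of its 32851 promoters. All 11 belonged to the 29 such genes called lower, but these were nearly all of the 31, so that overlap does not link the motif to the fall. Of 30 G2 and mitosis genes with a promoter 1 held a match (3.33%). A match is a description of letters and not a binding site. Cdc6, which loads the replicative helicase, was at 55.6, 60.9 and 56.3 against 12.9, 11.1 and 7.64 CPM. Uhrf1, which carries DNA methylation through replication, was at 78.6, 72.6 and 69.1 against 11.6, 13.6 and 21.01 CPM. In both genes the CD8 values lay close together and above every Treg-labelled value. They are shown because they had the largest falls among S phase genes with a match, at -2.49 and -2.18. The match is in capitals and begins at base -138 of Cdc6 (chr11:98907901-98908200, plus strand) and at base -185 of Uhrf1 (chr17:56304063-56304362, plus strand), counted from the start.
Cdc6: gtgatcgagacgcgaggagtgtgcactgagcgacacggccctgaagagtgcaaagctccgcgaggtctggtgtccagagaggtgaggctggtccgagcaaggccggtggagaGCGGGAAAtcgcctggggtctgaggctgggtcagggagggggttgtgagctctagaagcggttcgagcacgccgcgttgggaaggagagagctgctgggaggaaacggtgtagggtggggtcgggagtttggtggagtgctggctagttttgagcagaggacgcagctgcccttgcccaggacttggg
Uhrf1: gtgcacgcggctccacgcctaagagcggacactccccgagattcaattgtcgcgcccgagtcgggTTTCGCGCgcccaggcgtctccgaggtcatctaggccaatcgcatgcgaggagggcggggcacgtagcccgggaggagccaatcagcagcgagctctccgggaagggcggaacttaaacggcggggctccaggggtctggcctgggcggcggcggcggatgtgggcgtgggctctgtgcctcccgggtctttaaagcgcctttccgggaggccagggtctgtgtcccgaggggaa

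Biosynthetic genes that T cells raise on activation were lower too. Of 34 sterol and fatty acid synthesis genes 29 were lower and 0 higher (median -1.39). Hmgcs1, which starts the mevalonate pathway, was at 438, 331 and 330 CPM in CD8 and 114, 99.8 and 93.6 CPM in Treg-labelled libraries (log2 fold change -1.86, adjusted p = 2.22e-08). The desaturase Scd2 was at 247 to 283 against 60.2 to 76.2 CPM. Srebf2, the transcription factor of the pathway, was not called (0.09). Of 31 glycolysis and hypoxia genes 18 were lower and 1 higher (median -0.76). Egln3, an oxygen-sensing prolyl hydroxylase, was at 49.1, 39.6 and 38.0 against 2.58, 0 and 2.87 CPM (log2 fold change -4.42). Ldha, which makes lactate, was at 967 to 1116 against 490 to 554 CPM, and the lactate transporters Slc16a3 and Slc16a1 had log2 fold changes of -2.55 and -2.08. Hif1a was lower (-1.37), and the higher member was Ankrd37 (1.30).

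Protein-making and protein-degrading machinery split in direction. Nucleolar ribosome biogenesis genes were lower in 27 of 42 and higher in 2 (median -0.48), mitochondrial ribosomal proteins lower in 47 of 76 and higher in 4 (median -0.58), and proteasome subunits lower in 34 of 48 and higher in 2 (median -0.51). Aminoacyl-tRNA synthetases were lower in 11 of 20 and higher in 2, but lower in 7 without Treg replicate 3. Chaperonin and heat shock genes were lower in 10 of 19 and higher in 3, and none was higher without CD8 replicate 2 or on total counts only. Npm1, a nucleolar chaperone, was at 2602, 2024 and 2027 against 1093, 1076 and 1076 CPM, and Cct7, a subunit of the cytosolic chaperonin, at 630 to 773 against 260 to 293 CPM. Cytosolic ribosomal protein genes, by contrast, were higher in 47 of 84 and lower in 7 (median 0.43), or lower in 3 without Treg replicate 3. Rpl35 was at 394, 334 and 282 against 1186, 1125 and 789 CPM, and Rpl37a at 581 to 767 against 1662 to 2131 CPM. Most of these differences were small, and a test against a fold change of 1.5 left far fewer calls. By that test 8 nucleolar, 14 mitochondrial ribosomal protein, 10 proteasome, 7 chaperonin and 1 aminoacyl-tRNA synthetase genes were lower, and 12 cytosolic ribosomal protein genes were higher and 1 lower. Over all 12820 genes the same test called 1861 higher and 1156 lower. The 12 of 84 cytosolic ribosomal protein genes and the 1 of 20 synthetases were thus no larger shares than those of all genes. Many ribosomal protein genes have near-identical processed pseudogenes, so their counts are uncertain. Nuclear-encoded oxidative phosphorylation genes were lower in 29 of 81 and higher in 11 (median -0.17), with 6 higher on total counts only and by DESeq2. Against a fold change of 1.5, 8 were lower and 2 higher. By that test the share lower was close to that of all genes, and the share higher was below it. The mitochondrial genome itself was mixed: 14 of 27 of its genes were higher and 3 lower, or 6 and 2 against a fold change of 1.5. Most of the 14 were not protein-coding: 9 of 17 mitochondrial tRNA genes and 2 of 2 mitochondrial ribosomal RNA genes were higher. The ribosomal RNA mt-Rnr2 was at 14850 to 16730 against 27070 to 31870 CPM, while mt-Nd5, a subunit of complex I, was at 6017 to 7787 against 2613 to 2848 CPM and mt-Co1, a subunit of complex IV, had a log2 fold change of -0.95.

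Genes of naive and resting T cells were higher. Of 25 tested, 21 were higher and 2 lower (median 1.05). Klf3, a transcriptional repressor, was at 49.1, 70.6 and 81.0 against 269, 238 and 286 CPM, and Igfbp4, an inhibitor of insulin-like growth factor, at 9.01, 12.2 and 8.89 against 82.7, 85.0 and 151 CPM (log2 fold change 3.51 ± 0.38, SE, edgeR adjusted p = 2.72e-06). All Treg-labelled values of these genes lay above all CD8 values. Ccr7, which guides cells to T cell zones, was at 43.7 to 55.6 against 139 to 160 CPM. The transcription factors Bach2 and Tcf7, which hold cells in an undifferentiated state, were higher by 1.45 and 1.38 and Foxp1 by 0.73. Il7r, the survival cytokine receptor of resting T cells, was not called (0.22), and the lower members were Dapl1 (-1.26) and Satb1 (-0.61). The call of Satb1 was lost without CD8 replicate 1, CD8 replicate 2 or Treg replicate 3 (edgeR adjusted p = 0.0532, 0.0611 and 0.0539). Among 20 tested chemokine and migration receptors 9 were higher and 6 lower, or 7 and 1 against a fold change of 1.5. Cxcr4, the receptor for Cxcl12, was at 6.51, 9.14 and 14.3 against 54.3, 80.1 and 64.0 CPM (log2 fold change 2.71), and the integrin chain Itga4 at 69.6 to 90.4 against 198 to 229 CPM. Ccr4 was at 29.6 to 36.6 against 2.47 to 10.3 CPM, and Cd44 and Itgal were also among the lower members.

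Interferon-stimulated genes leaned higher, with 17 of 41 tested higher and 4 lower (median 0.45), against 26.8% and 19.9% of all genes tested. This lean rested partly on 1 library: without Treg replicate 3 the median was 0.236, against 0.105 over all genes in that fit. In a test against a fold change of 1.5, 11 were higher and 2 lower, beside 1861 and 1156 of all 12820 genes. Iigp1, an immunity-related GTPase, was at 3.51, 2.54 and 4.94 CPM in CD8 and 28.4, 37.0 and 45.9 CPM in Treg-labelled libraries (log2 fold change 3.37, adjusted p = 2.45e-08). Ifi44 had 1 count in all CD8 libraries against 6.46 to 11.1 CPM, a ratio of 50.1 (95% exact interval 8.09 to 2070). Irf7, the amplifier of the response, was at 1.502 to 5.43 against 9.86 to 15.5 CPM. Bst2 was lower (-1.51), as was the feedback inhibitor Socs1, at 54.9 to 81.6 against 13.4 to 24.6 CPM, and Ifit2 and Mx1 were not called.

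The interferon-stimulated response element, the site through which type I interferon is known to act, was searched as GAAA, any 2 bases and GAAA on both strands. It occurred in 3.44% of all 32851 promoters, in any promoter of 1079 of 27025 genes (3.99%), and in 20 of the 32 interferon-stimulated genes with a promoter in the table. Of the genes called higher 6 of 11 held it, and of those called lower 3 of 3. Ifit1, which binds RNA lacking a host cap, was at 3.51, 1.02 and 2.96 against 9.05, 8.63 and 11.46 CPM (log2 fold change 1.96). Isg15, a ubiquitin-like modifier, was at 9.01, 3.05 and 10.4 against 18.1, 14.8 and 24.8 CPM (log2 fold change 1.41), a call lost without Treg replicate 3 (edgeR adjusted p = 0.0591). Their promoters are shown as examples with several matches, in capitals, that begin at base -104 of Ifit1 (chr19:34640639-34640938, plus strand) and at base -78 of Isg15 (chr4:156200769-156201068, minus strand).
Ifit1: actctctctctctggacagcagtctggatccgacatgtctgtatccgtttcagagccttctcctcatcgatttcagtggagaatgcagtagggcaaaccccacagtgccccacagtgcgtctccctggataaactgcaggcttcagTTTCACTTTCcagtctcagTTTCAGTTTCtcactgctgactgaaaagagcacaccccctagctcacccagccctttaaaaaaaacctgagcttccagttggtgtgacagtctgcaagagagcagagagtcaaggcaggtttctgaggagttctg
Isg15: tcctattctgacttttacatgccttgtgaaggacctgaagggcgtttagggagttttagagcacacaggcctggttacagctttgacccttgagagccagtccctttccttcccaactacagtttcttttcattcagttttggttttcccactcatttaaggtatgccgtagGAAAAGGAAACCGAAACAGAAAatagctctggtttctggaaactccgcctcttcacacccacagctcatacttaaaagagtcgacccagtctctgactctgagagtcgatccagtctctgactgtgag

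Signalling and survival genes differed within their families. Of 21 NF-kappaB genes 13 were higher and 3 lower (median 0.54), but 4 and 1 in a test against a fold change of 1.5. That test called 1861 higher and 1156 lower of all 12820 genes. Nfkbid, a nuclear inhibitor-like regulator, was at 37.0 to 45.2 against 123 to 160 CPM and Rel at 133 to 174 against 237 to 323 CPM, whereas Traf1 was at 160 to 226 against 60.2 to 106 CPM. Of 30 AP-1 and immediate early genes 9 were higher and 11 lower, or 4 and 6 by that test. Batf3 was at 73.6, 74.7 and 53.3 against 5.17, 4.93 and 6.69 CPM, and Ppp1r15a, which reverses the stress-induced block of translation, at 5.51, 5.59 and 5.43 against 68.5, 62.9 and 43.9 CPM (log2 fold change 3.32, adjusted p = 3.18e-10). Egr2 and Egr3 were higher by 1.14 and 1.10. Of 36 integrated stress and unfolded protein response entries 8 were higher and 16 lower, or 3 and 9 by that test. Atf5 was at 58.1, 86.3 and 75.6 against 368, 380 and 286 CPM (log2 fold change 2.18), and Chac1, which degrades glutathione, at 8.89 to 14.2 against 42.0 to 67.2 CPM. Asns, the asparagine synthetase induced by the same branch, went the other way, at 102 to 139 against 31.0 to 33.3 CPM, and the endoplasmic reticulum chaperone Hspa5 was lower (-0.60). Ddit3 (CHOP) carries 2 overlapping gene entries in the annotation, higher by 0.67 and 2.81, between which reads may have been split. Among apoptosis genes Bcl2l11 (BIM), a killer protein of the BCL2 family, was at 38.6, 48.3 and 53.8 against 233, 223 and 175 CPM (log2 fold change 2.11, adjusted p = 3.87e-10), and Bcl2a1b, a survival member with near-identical paralogs, was higher by 2.60. Bcl2l1 (BCL-XL), another survival member, was lower (-1.83). Casp4, a caspase that senses bacterial lipopolysaccharide, was at 8.01 to 11.4 against 117 to 177 CPM.

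**Figure D3:**
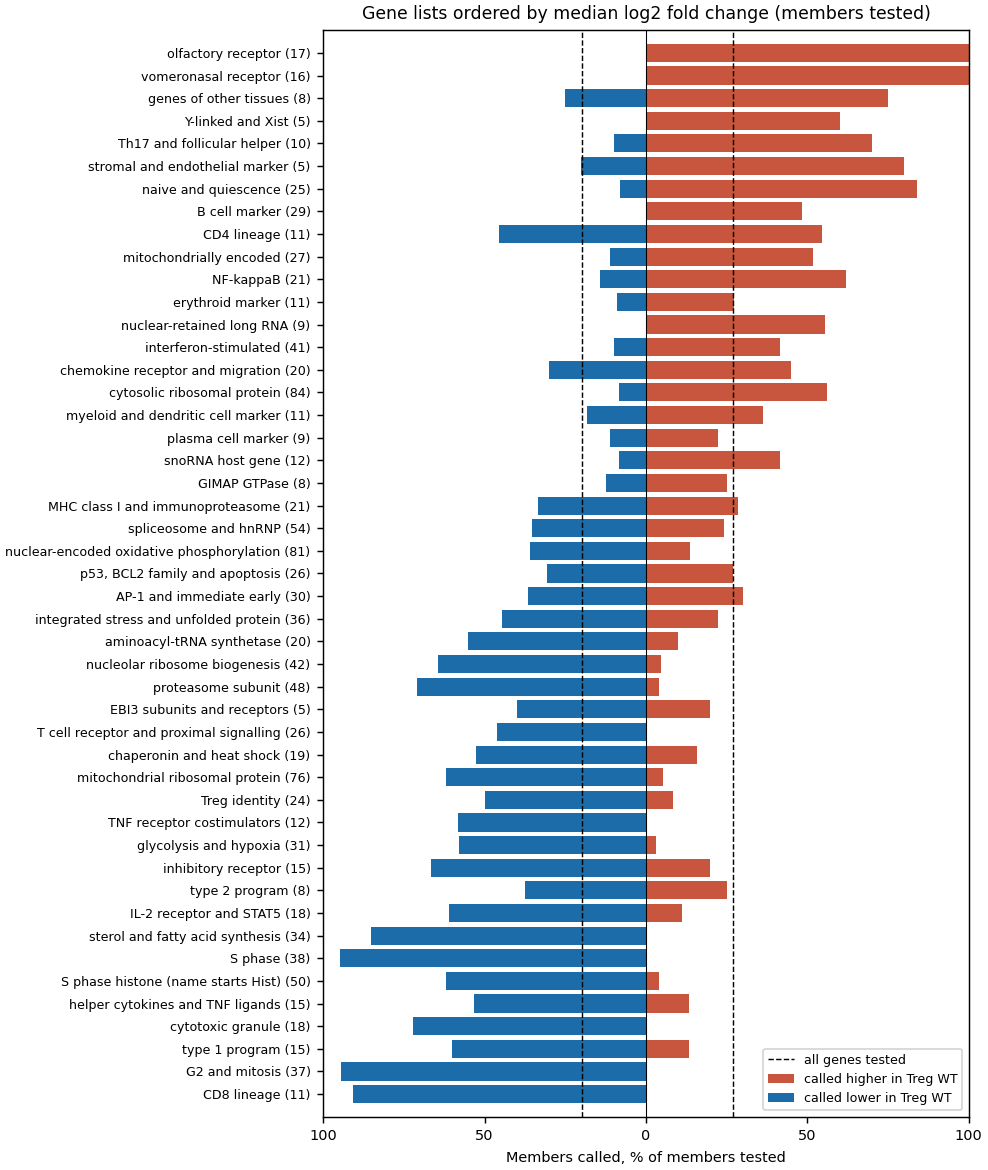
Share of the tested members of each gene list called higher (red, right) or lower (blue, left) in Treg WT against CD8 WT, ordered by the list's median log2 fold change; brackets give the members tested and dashed lines the shares over all genes tested (26.8% higher and 19.9% lower). CD8 lineage, G2 and mitosis, type 1 and cytotoxic lists stand at the bottom, and receptor genes of the nose stand at the top.

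RNA composition differed between the groups beyond these pathways. Protein-coding genes held 90.9 to 91.6% of counts in CD8 and 84.2 to 85.3% in Treg-labelled libraries. Malat1, an RNA retained in the nucleus, took 0.318 to 0.420% and 1.14 to 1.22%, at 3119, 3210 and 4081 against 13240, 13040 and 11900 CPM (log2 fold change 1.85 ± 0.15, SE, adjusted p = 1.09e-07). Neat1 and Kcnq1ot1, further nuclear RNAs, were higher by 1.07 and 0.69. Of 240 tested lincRNA genes 132 were higher and 10 lower, of 199 antisense genes 118 and 5, and of 48 snRNA genes 33 and 0, against 2544 and 2462 of 10893 protein-coding genes. Without a stated strand setting, an antisense gene and its partner cannot be told apart. Among called genes with the largest rises stood Lars2, a mitochondrial leucyl-tRNA synthetase, at 28.5, 24.4 and 31.1 against 321, 308 and 266 CPM, and Mir6236, at 2.03 to 5.43 against 36.3 to 60.7 CPM. Both genes are known to share sequence with ribosomal RNA, so their counts are uncertain.

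Genes with no count in other T cell libraries were counted more often in the Treg-labelled libraries. At an equal depth of 841892 counts, 14807 to 15203 genes were expected with a count in CD8 and 19525 to 20157 in Treg-labelled libraries. Of the 33347 genes with no count in the 6 CD4 and CD8 libraries of KO mice, 428 to 638 had a count in a CD8 WT library and 3646 to 3698 in a Treg-labelled one, and their share of counts was 0.0233 to 0.0351% and 0.778 to 0.941%. That set was defined by CD4 and CD8 libraries alone, so larger counts in Treg-labelled libraries were favoured in advance. Olfactory receptors, which serve smell in nasal neurons, number 1108 in the table: 13 to 21 of them had a count in a CD8 library and 202 to 208 in a Treg-labelled one. All 17 tested were higher, with a median log2 fold change of 6.46, or 3.99 with genes at 0 counts in CD8 set to their bound. Only genes high in 1 group could pass the filter, so that count had to differ. Vomeronasal receptors showed 5 to 11 and 88 to 92 genes with a count, of 330. Matn4, a cartilage matrix protein, had 0 counts in CD8 and 59.4, 55.5 and 51.6 CPM in Treg-labelled libraries, at least 110-fold higher. Mroh2a was at 0, 0 and 1.98 against 76.2, 76.4 and 60.2 CPM, and Dct, a pigment cell enzyme, at 3.004, 0.508 and 4.44 against 124, 126 and 100 CPM. Further large rises were those of Napb, a membrane fusion adaptor of neurons (2.504 to 3.56 against 86.9 to 116 CPM), Cpeb1, a regulator of polyadenylation (1.02 to 4.01 against 37.3 to 62.0 CPM), and Chst1, a sulfotransferase (2.504 to 7.11 against 76.4 to 98.6 CPM). Of 8 tested genes of other tissues 6 were higher and 2 lower. The latter were Tg, thyroglobulin (37.5 to 60.9 against 7.40 to 19.4 CPM), and Tnp2, a sperm chromatin protein (5.01 to 7.41 against 0.955 to 2.58 CPM). All Treg-labelled values of Tnp2 lay under the floor of those libraries, 2.87 to 3.88 CPM. The liver protein Alb, among the higher ones, was at 0, 0.508 and 0 against 12.9, 13.6 and 9.55 CPM and the cardiac myosin Myh7 at 0 against 9.55 to 19.4 CPM. Only 8 of the 50 listed genes of other tissues passed the filter. Genes at or near 0 counts in CD8 libraries could pass it only through another group, so their direction was largely fixed in advance. In all, 402 genes called higher had 0 counts in the CD8 libraries, 205 of them protein-coding, and 5 called lower had 0 counts in the Treg-labelled ones. The part of this difference in composition in the results above was not tested.

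**Figure D4:**
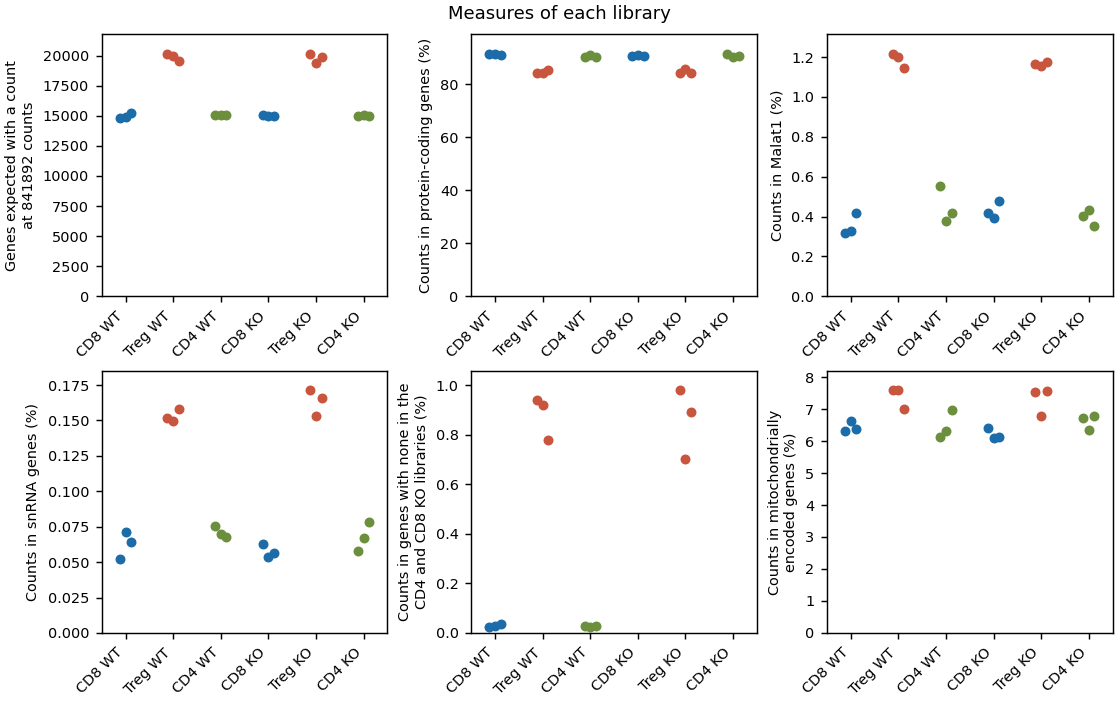
Measures of each of the 18 libraries by group: genes expected with a count at equal depth, and the percent of counts in protein-coding genes, Malat1, snRNA genes, genes with no count in the CD4 and CD8 KO libraries (those 6 not plotted there) and mitochondrially encoded genes. The Treg-labelled libraries of both genotypes form a group of their own in the first 5 panels. The genes with no count in KO libraries were defined by CD4 and CD8 libraries alone, which favours that separation in their panel.

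Markers of other cells were present in both groups. Of 29 tested B cell markers 14 were higher and 0 lower (median 0.66), and the summed level was 7673, 9303 and 12880 CPM in CD8 and 14450, 15270 and 15350 CPM in Treg-labelled libraries, against 10260 to 18410 CPM in CD4 libraries. That count moved with single libraries, to 7 without Treg replicate 3, 9 without CD8 replicate 2 and 23 without CD8 replicate 3, and it was 5 in a test against a fold change of 1.5. By the latter test 1861 of all 12820 genes were higher. Fcer2a, the low-affinity IgE receptor, was at 10.5 to 15.3 against 44.9 to 64.6 CPM and Ebf1, a B cell transcription factor, at 81.6 to 156 against 292 to 351 CPM, while Ms4a1 (CD20) was not called (0.21). Myeloid and dendritic cell markers summed to 1078 to 1358 against 1487 to 1598 CPM, with 4 of 11 tested higher and 2 lower (2 and 2 against a fold change of 1.5), and Lyz1 and Clec9a at 0 counts in both groups. Among these Hmox1, the heme-degrading enzyme that stress also induces, was at 14.8 to 24.4 against 121 to 141 CPM. Granulocyte and mast cell markers summed to 6.01 to 16.8 against 28.7 to 39.4 CPM, and Elane, Epx, Cpa3 and Mcpt4 had 0 counts in both groups. Of 5 tested stromal and endothelial markers 4 were higher and 1 lower (median 1.18), with Col3a1 and Ccl21a at 0 counts in both groups. Bgn, a matrix proteoglycan, was at 0 to 0.988 against 7.40 to 16.8 CPM and Col4a1, a basement membrane collagen, at 0 to 0.494 against 5.73 to 6.46 CPM. Genes so low in CD8 libraries could pass the filter only through another group, so their direction was largely fixed in advance. The list's summed level, 539 to 661 against 430 to 485 CPM, was mostly Vim, the intermediate filament gene that was the lower member and that T cells also express. Erythroid markers summed to 969 to 1349 against 1387 to 1421 CPM. Of 11 tested 3 were higher and 1 lower, where 26.8% and 19.9% of all genes tested were, so the share higher was close to that of all genes. Without CD8 replicate 3 the erythroid calls were 6 higher and 1 lower. No hemoglobin gene was called in the fit of all samples, whereas Hba-a1, Hbb-bs and Hbb-bt were called higher without CD8 replicate 3 (edgeR adjusted p = 0.0229, 0.00426 and 0.0111). Of 3 tested NK and innate-like T cell markers 0 were called, and 1 without CD8 replicate 3, with summed levels of 46.2 to 67.2 against 62.9 to 65.9 CPM. Of the Y-linked genes, Ddx3y was at 10.2 to 19.3 against 33.6 to 65.9 CPM and Kdm5d at 3.51 to 4.94 against 11.1 to 24.8 CPM, whereas Xist, expressed from the inactive X, was not called (0.07). The part of these cells, or of the animals' sex, in the other results was not tested.

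The same labels compared in KO libraries gave 5202 called genes of 12820 (40.6%), 2990 higher and 2212 lower. The test of the difference between the WT and KO comparisons called 0 genes (0%) in edgeR, with 718 at an unadjusted p under 0.05, and 0 in DESeq2, with 387. Where Treg WT and Treg KO libraries agreed within sampling noise, the comparisons are not independent. Mean Ebi3 was 28.87 CPM in CD8 WT and 28.57 CPM in CD8 KO libraries. In Treg-labelled libraries mean Ebi3 was 35.25 CPM in WT and 30.67 CPM in KO. These counts do not show the loss that the KO label names, so the 0 calls alone do not show what that loss does. Whether the KO allele leaves a transcript that the assay reads is not given in the sources used here. Values side by side were -2.44 and -2.20 for Cd8a, -4.03 and -4.48 for Gzmb, -3.71 and -3.62 for Ifng, 1.60 and 1.70 for Ccr7 and 1.85 and 1.52 for Malat1, WT first. Some named genes were called in WT alone, among them Bst2 (-1.51 in WT, 0.09 in KO), Tnfrsf1a (-1.43 and 0.13) and Mrps21 (1.90 and 0.19), but none of these differences passed the test. Cell cycle lists were lower in KO as well, with 35 of 38 S phase and 33 of 37 G2 and mitosis genes called.

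**Figure D5:**
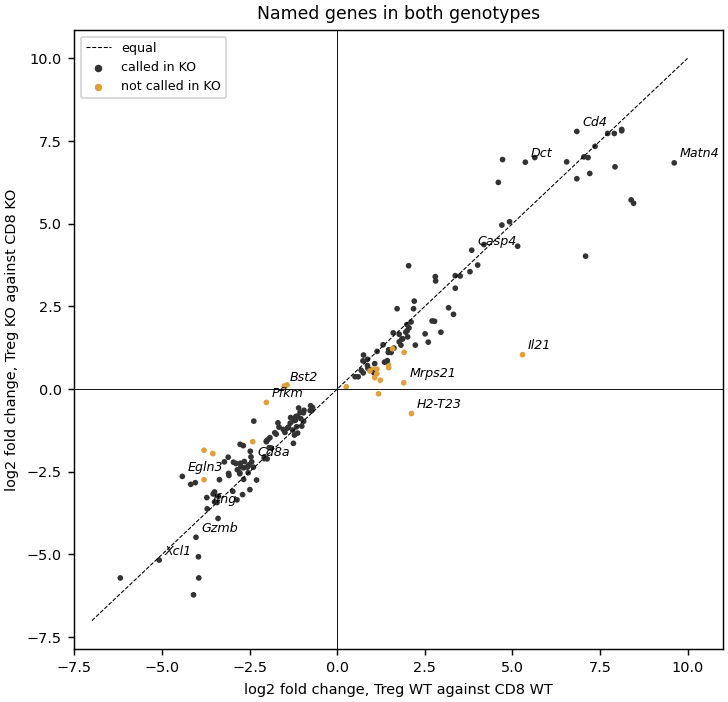
Log2 fold change of each named gene in Treg WT against CD8 WT (horizontal) and in Treg KO against CD8 KO (vertical); dark points were called in KO, orange points were not, and the dashed line marks equal values. Cd8a, Gzmb, Ifng and Xcl1 lie near the line, while Bst2, Pfkm and Mrps21 lie away from it.

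Against CD4 libraries of the same genotype, which share the Treg-labelled samples with the main comparison, 5047 genes of 12820 were called (39.4%). Several differences from CD8 had a counterpart there. Mean Il2ra was 829 ± 126 CPM in CD8 (SD, n = 3), 512 ± 134 CPM in CD4 (SD, n = 3) and 118 ± 47.1 CPM in Treg-labelled libraries (SD, n = 2), and Treg-labelled libraries were lower than CD4 by 2.09 on the log2 scale (edgeR adjusted p = 0.000102). Klf3, Cxcr4 and Atf5 were higher than in CD4 by 1.70, 2.31 and 2.40, and Rrm2 and Cdc20 lower, at -2.39 and -2.72. Genes of the CD8 lineage went the other way against CD4, with 6 of 11 called higher and 1 lower, Cd8a by 5.53 and Cd8b1 by 3.02. Cd4 was lower than in CD4 libraries, at -1.26 (adjusted p = 0.00013). Gzmb was not called against CD4 (log2 fold change -1.36, adjusted p = 0.0591), and Ifng was higher by 1.36 (adjusted p = 0.0228).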

How the data were processed

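RNA was measured in 18 libraries of mouse spleen T cells by 3' tag sequencing with molecular identifiers. The authors deposited 1 table of raw counts for 55487 Ensembl genes, of which 55227 matched GENCODE M21 for names. Per the submitters' processing notes the tools were FastQC, cutadapt 2.10, STAR 2.5.3a, UMI-tools 1.0.0 and featureCounts of Subread 2.0.0, with build GRCm38. Tool settings and strand are not given in the sources used. No column of per-sample values was left unused.

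Libraries of 1 group without a difference beyond sampling noise were summed, in Treg WT (1 and 2) and Treg KO (1 and 3). Genes passing edgeR's filterByExpr (minimum count 10) were scaled by TMM and fitted as 6 group means with the robust quasi-likelihood test (edgeR 4.0.16, limma 3.58.1, R 4.3.3), with Benjamini-Hochberg adjustment over all genes and a threshold of 0.05. CPM values refer to the TMM-scaled library size. The test was checked on simulated counts before use. DESeq2 1.42.0, limma-voom, other scalings and filters, other sets of libraries, a replicate block and leaving out each library were alternatives. Gene lists, and genes described from them, were chosen with earlier results of these data known. Named genes were Cd8a, Cd8b1, Cd4, Zbtb7b, Foxp3 and Ebi3, then the 12 largest rises and 12 largest falls among called genes with a mean of at least 20 CPM and groups apart (predicted genes and pseudogenes passed over), and up to 4 called members of each list with the largest change. Further members were chosen after their values were seen.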

Additional observations from a re-analysis of the deposited data

How the results depend on the processing

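The 5996 genes called between Treg-labelled and CD8 WT libraries became 3785 with a minimum count of 50 (1895 higher, 1890 lower), where fewer genes were tested, and 3017 in a test against a fold change of 1.5 (1861 higher, 1156 lower). Leaving out each library in turn gave 5110 to 6064, lowest without Treg replicate 3, and, in fits chosen after seeing the data, 4292 to 4987 in KO, 4235 to 5405 against CD4 and 0 to 0 for the difference between genotypes. Without a filter on low counts that difference called 8 genes, and the cause was not tested. The share of calls that were higher moved to 63.49% with upper-quartile scaling (3904 higher, 2245 lower) and to 47.65% on total counts only, against 3441 higher and 2555 lower. DESeq2 called 4930 and limma-voom 5975. No gene called both here and under an alternative turned direction. Of 185 named tested genes 125 were tested under all 20 alternatives, and 112 of those kept their side of the threshold in each.

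Replicate numbers did not pair the samples (correlations of deviations -0.07 to 0.05). With a replicate block the counts were 6308, 5539 in KO, 5374 against CD4 and 0 for the difference. Depth limits low genes: a Treg-labelled library has a floor of 2.87 to 3.88 CPM. Leaving a group with 1 sample assumes that it varies like the others.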
